A study of Drosophila melanogaster with 12 samples.

Results

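Neuropeptide receptors are the cell surface proteins through which neurons, glia and glands read peptide signals, and 35 fly genes that encode them were examined here in the female brain. The genes were taken from a list of receptor names and matched by symbol to the array annotation. Of the 35, 21 had a probe set that names that gene alone, out of 11983 genes with such a probe set in all. For each gene the probe set with the highest mean over the 12 arrays was used. The other 14 genes, AstA-R1, AstA-R2, AstC-R2, CapaR, CCKLR-17D1, CrzR, FMRFaR, Lgr1, MsR1, MsR2, PK2-R1, PK2-R2, RYa-R and CNMaR, had no probe set under their name in that annotation and were not analysed here.

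All of these receptors are G protein-coupled receptors. A peptide released by one group of neurons or gland cells binds the receptor on another, and the receptor acts through G proteins on cyclic AMP, calcium or potassium channels. In flies, peptide signalling of this kind sets feeding, sleep and daily activity rhythms, water balance, mating behaviour and the timing of moults. Receptor mRNA is made in the cells that respond to a peptide. In whole brain samples, fewer such cells and less RNA per cell cannot be told apart.

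Brains came from 3-day-old Drosophila melanogaster females in which the neuronal driver elav-GAL4 expressed a DsRed transgene in all 3 genotypes. CAG0 flies carried elav-GAL4 with 1 copy of the reporter without a repeat. CAG100 flies carried elav-GAL4 with 5 copies of a reporter with 100 CAG units behind the coding sequence, described by the submitters as toxic. CAA/G105 flies carried elav-GAL4 with 2 copies of a reporter whose repeat of similar length is interrupted by CAA, described as not toxic. Per the series text, copies were adjusted for equal transgene mRNA. Repeat and copy number cannot be told apart in these samples. Each genotype had 4 independent samples of about 20 pooled brains with eyes, lamina and outer medulla removed, and each sample was hybridised to 1 Affymetrix array. Values are log2 signals made by the authors, and their precision is limited by the 4 arrays per genotype.

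Across the whole table, pairs of arrays from 1 genotype had r between 0.9957 and 0.9986, and pairs from different genotypes between 0.9929 and 0.996. The mean over 7 neuron markers, elav among them, lay between 12.17 and 12.40 log2 on every array, and that of 7 glia markers between 13.41 and 13.58. In CAG100 against CAG0, limma called 1 glia marker, alrm, lower by -0.19 ± 0.03 (14.3%, beside 18.3% of all tested probe sets). In CAA/G105 against CAG0, 2 were called higher, repo (0.15 ± 0.03) and moody (0.27 ± 0.08), which is 28.6%, beside 13.2%. Between the repeats 2 were called lower in CAG100 (28.6%, beside 20.8%). On 3 arrays (CAG100 replicates 1 and 3, CAA/G105 replicate 3) the gland hormone gene Akh read only 2.06 to 2.43, against at least 11.04 on the other 9, so receptor results are also given without these 3 Akh-negative arrays. The mean over 8 haemocyte markers, all of them at log2 4 or more on at least 4 arrays, was 8.89 to 9.99 in CAA/G105. This was below every array of CAG0 (up to 10.86) and CAG100 (10.1 to 10.53). The highest CAA/G105 array, at 9.99, lay only just under the lowest CAG0 array. By limma, 3 of the 8 (37.5%) were called lower in CAA/G105 than in CAG0, beside 7.72% of all tested probe sets. The mean over 9 fat body markers, 8 of them at that level, was 10.74 to 11.51, 10.79 to 11.20 and 10.56 to 10.94 in CAG0, CAG100 and CAA/G105. Of the 8, 2 (25.0%) were called higher in CAG100 than in CAG0, beside 7.86% of all tested probe sets. None was called lower, but the fat body marker Lsp2 differed by -2.35 ± 0.76 there (limma adjusted p = 0.0507). Over all arrays, the mean of 5 photoreceptor markers was 8.45 to 10.16 and that of 8 muscle markers 3.67 to 8.26. The part of these cells in the receptor results was not tested.

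The first question was which receptors the brain samples hold. A probe set was called present where it read at least log2 4. By this measure 17 of the 21 measured receptor genes (81.0%) were present, each on all 12 arrays, against 58.2% of all genes with 1 probe set each on at least 4 arrays. They were AkhR, AstC-R1, CCKLR-17D3, Dh31-R, Dh44-R1, Dh44-R2, Lgr3, Lgr4, Lkr, NPFR, Pdfr, SIFaR, sNPF-R, SPR, TkR86C, TkR99D and TrissinR. The share on at least 4 arrays was higher in the related gene lists used below. It was 83.3% for peptide ligands, 85.7% for peptide processing, 92.0% for G protein signalling and 86.7% for amine receptors. As a check on the threshold, 15 of 17 eggshell and male accessory gland genes lay under log2 4 on every array. The exceptions were Vm32E, at 4.36 to 7.12, and Acp95EF, at 12.23 to 12.64.

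**Figure D1:**
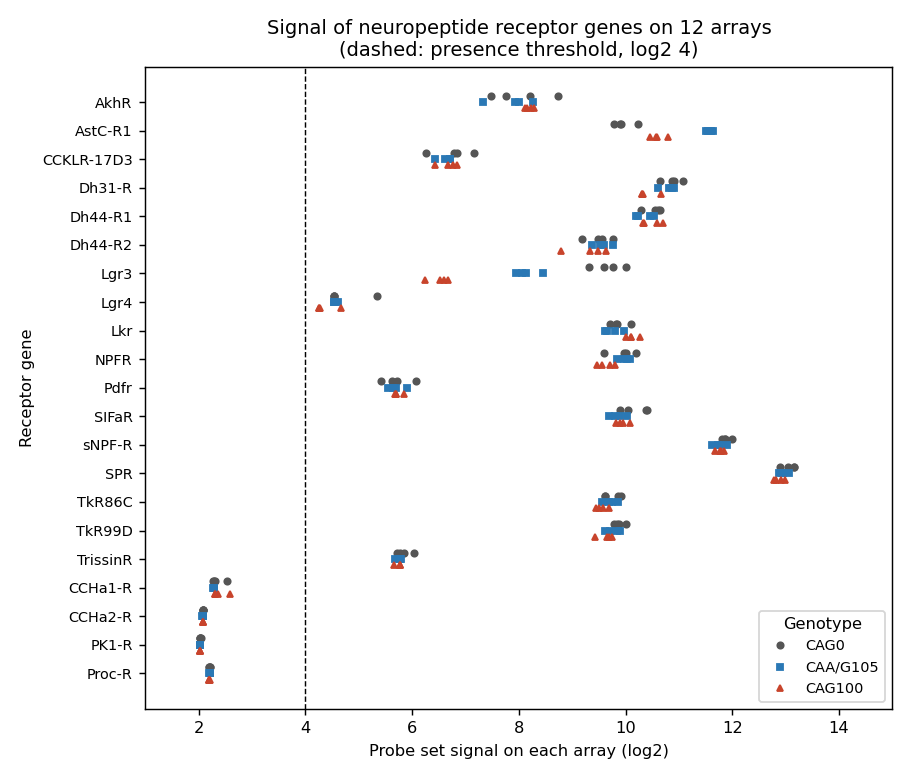
Signal of the 21 measured receptor genes on each of the 12 arrays, in log2 on the horizontal axis, with 1 row per gene and 1 symbol per array by genotype. The dashed line marks log2 4: 17 genes lie right of it on every array and CCHa1-R, CCHa2-R, PK1-R and Proc-R lie left of it, and levels of different genes cannot be compared because each has its own probes.

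The 4 genes that stayed under the threshold read almost the same on every array. CCHa1-R, the receptor of CCHamide-1, read 2.27 to 2.58, and CCHa2-R, the receptor of CCHamide-2, read 2.07 to 2.08. PK1-R, a receptor of pyrokinin-1, read 2.02 to 2.04, and Proc-R, the receptor of proctolin, read 2.19 to 2.22. These values show that the signal was at the level of absent genes, not that the receptor is missing from every cell. The ligand gene CCHa1 was present on the same arrays, at 9.69 ± 0.19 in CAG0.

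Nearest to the threshold was Lgr4, a leucine-rich repeat receptor related to Lgr3. It read 5.34, 4.53, 4.53 and 4.53 on CAG0 replicates 1 to 4, 4.67, 4.28, 4.25 and 4.26 in CAG100, and 4.54, 4.56, 4.62 and 4.53 in CAA/G105. Another probe set of Lgr4 read 3.06 to 3.70, under the threshold on every array. TrissinR, the receptor of trissin, lay within 0.05 of its median of 5.78 on 7 of 12 arrays, and Pdfr of 5.69 on 6. The median gene with a mean between log2 5 and 6 did so on 3 arrays. Lgr4 lay as near to its median of 4.53 on 6 arrays, and the median gene between log2 4 and 5 on 4. Presence rested on the probe set chosen for other genes as well: of 7 receptor genes with another probe set, 5 (AkhR, Lgr4, SIFaR, SPR and TrissinR) read under log2 4 on it on all arrays.

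The question posed by the series text was which genes differ between brains with the toxic repeat and the control. All 8966 probe sets that reached log2 4 on at least 4 arrays were tested together with limma, which moderates each probe set's variance, and p-values were adjusted by the Benjamini-Hochberg method over all of them. A gene is called where the adjusted p is under 0.05. Differences are given on the log2 scale ± SE, and levels as mean ± SD over 4 arrays.

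The leucine-rich repeat receptor gene Lgr3 had the largest difference among the 17 tested receptor genes. Lgr3 encodes the receptor through which larval brain neurons sense insulin-like peptide 8, a signal from growing or damaged tissue that delays metamorphosis. It read 10.01, 9.60, 9.31 and 9.77 on the CAG0 arrays. In CAG100 it read 6.60, 6.67, 6.52 and 6.24. In CAA/G105 it read 8.14, 8.46, 8.06 and 7.94. The genotypes form 3 separate bands, with CAG0 highest, CAA/G105 between and CAG100 lowest, and no array of one genotype reaches into another.

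The means were 9.67 ± 0.29 in CAG0, 8.15 ± 0.22 in CAA/G105 and 6.51 ± 0.19 in CAG100 (SD, n = 4 each). Lgr3 was 8.98-fold lower in CAG100 than in CAG0, a difference of -3.17 ± 0.16 (limma adjusted p = 3.68e-08), which ranks 26 among all decreases of the 8966 probe sets. CAA/G105 was 2.88-fold below CAG0 (-1.53 ± 0.16, adjusted p = 3.2e-05). Between the repeats it was 3.12-fold lower in CAG100 (-1.64 ± 0.16, adjusted p = 1.53e-05). Genotype and copy number (1 in CAG0, 2 in CAA/G105 and 5 in CAG100) cannot be told apart here. Without the Akh-negative arrays the differences were -3.22, -1.50 and -1.72, all still called. No other probe set names Lgr3, and the gene of its ligand, Ilp8, was not among the tested genes.

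Its relative Lgr4 was called in no comparison. The difference for Lgr4 was -0.37 ± 0.18 in CAG100 against CAG0 (limma adjusted p = 0.177), with a 95% interval of -0.75 to 0.02.

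**Figure D2:**
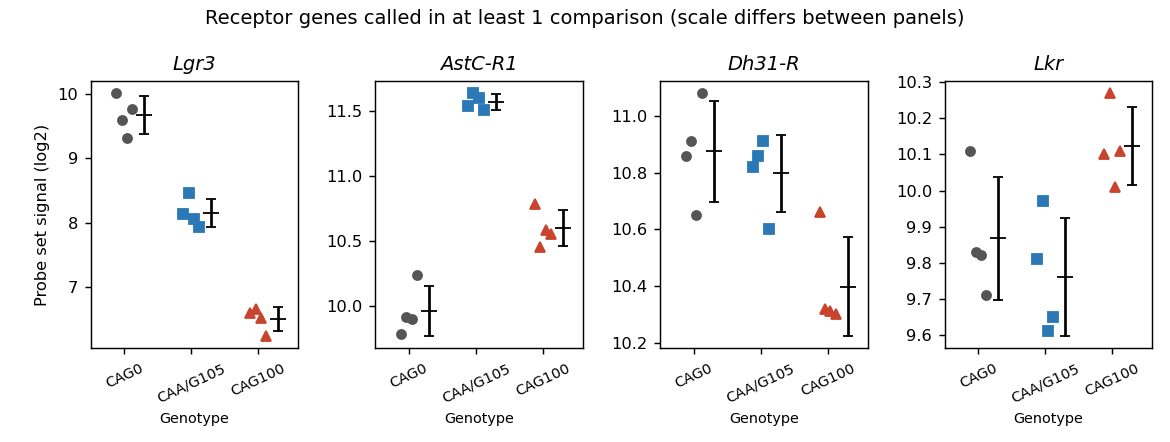
Log2 signal of Lgr3, AstC-R1, Dh31-R and Lkr on each array by genotype, with the mean and SD over 4 arrays as a black mark and bar; vertical scales differ between panels and do not start at 0. Lgr3 and AstC-R1 form 3 bands that do not overlap, while 1 CAG100 array of Dh31-R reaches the CAG0 range and Lkr overlaps between CAG0 and each repeat genotype.

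AstC-R1, a receptor of the inhibitory peptide allatostatin C and a relative of vertebrate somatostatin receptors, was the only receptor gene called higher against CAG0, apart from Lkr in CAG100 with array weights or without CAG0 replicate 1. It read 9.79, 9.92, 9.90 and 10.24 in CAG0. In CAG100 it read 10.79, 10.46, 10.59 and 10.56. In CAA/G105 it read 11.54, 11.64, 11.60 and 11.51. The 3 genotypes do not overlap here either, but their order differs from that of Lgr3: the interrupted repeat is highest and the pure repeat lies between.

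AstC-R1 was 1.56-fold higher in CAG100 than in CAG0 (0.64 ± 0.09, limma adjusted p = 0.000562). CAA/G105 exceeded CAG0 by 3.06-fold (1.61 ± 0.09, adjusted p = 1.59e-07), rank 62 among all increases. Directly compared, CAG100 was 1.97-fold lower than CAA/G105 (-0.98 ± 0.09, adjusted p = 1.53e-05). Without the Akh-negative arrays the differences were 0.55, 1.61 and -1.06, all called.

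The ligand gene AstC was -0.17 ± 0.04 in CAG100 against CAG0 (adjusted p = 0.0137, 0.00668 to 0.119 across alternatives, lost with arrays shifted to the same median and without the Akh-negative arrays) and -0.04 ± 0.04 in CAA/G105 against CAG0 (adjusted p = 0.626).

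Class B receptors, which bind larger peptide hormones and raise cyclic AMP, were represented by Dh31-R, Dh44-R1, Dh44-R2 and Pdfr. Dh31-R, the receptor of the calcitonin-like peptide Dh31, was the only one of these called. It read 10.86, 10.91, 10.65 and 11.08 in CAG0 and 10.66, 10.32, 10.31 and 10.3 in CAG100. In CAA/G105 it read 10.82, 10.86, 10.91 and 10.60. CAG100 replicates 2, 3 and 4 lie below all other arrays, while CAG100 replicate 1 lies just above the lowest array of each other genotype.

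Dh31-R was 1.39-fold lower in CAG100 than in CAG0 (-0.48 ± 0.11, limma adjusted p = 0.00948) and 1.32-fold lower than in CAA/G105 (-0.40 ± 0.11, adjusted p = 0.0207). The interrupted repeat differed from CAG0 by -0.08 ± 0.11 (adjusted p = 0.718), with a 95% interval of -0.31 to 0.16. Dh31-R was thus the only receptor gene called in CAG100 against both others and not in CAA/G105 against CAG0. The call against CAA/G105 was lost when any of CAG100 replicates 2, 3 or 4 or CAA/G105 replicates 2 or 3 was left out (differences of -0.38 to -0.36, adjusted p = 0.0573 to 0.0629), and without the Akh-negative arrays (-0.45, 0.0566). Across all alternatives the adjusted p ranged from 0.00545 to 0.0629. Another Dh31-R probe set, at 5.43 to 6.39, gave -0.06 ± 0.18 in CAG100 against CAG0 (adjusted p = 0.865). In CAG100 against CAA/G105 it gave -0.23 ± 0.18 (adjusted p = 0.399). Both calls thus rest on the probe set chosen, and a difference between the probe sets was not tested.

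The other class B genes were not called. Pdfr, through which clock neurons receive pigment-dispersing factor, read 5.42 to 6.07 in CAG0, 5.68 to 5.84 in CAG100 and 5.54 to 5.90 in CAA/G105. Its difference in CAG100 against CAG0 was 0.02 ± 0.14 (95% interval -0.28 to 0.31), while the ligand gene Pdf was higher by 0.41 ± 0.08 (limma adjusted p = 0.00482, but 0.0708 without the Akh-negative arrays). Dh44-R1 and Dh44-R2, receptors of a diuretic hormone that resembles vertebrate corticotropin-releasing factor, differed by at most 0.25 in size. For Dh44-R2, both probe sets gave near values in CAG100 against CAG0, -0.19 ± 0.17 and -0.20 ± 0.13 (adjusted p = 0.497 and 0.302).

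Lkr, the leucokinin receptor, acts in water balance, feeding and sleep, and was called only between the repeats. It read 10.11, 9.83, 9.82 and 9.71 in CAG0. In CAG100 it read 10.10, 10.27, 10.01 and 10.11. In CAA/G105 it read 9.81, 9.97, 9.61 and 9.65. All CAG100 arrays lie above all CAA/G105 arrays, while CAG0 replicate 1 lies among the CAG100 values.

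Lkr was 1.29-fold higher in CAG100 than in CAA/G105 (0.36 ± 0.10, limma adjusted p = 0.0256). Against CAG0 it differed by 0.26 ± 0.10 in CAG100 (adjusted p = 0.108) and by -0.11 ± 0.10 in CAA/G105 (adjusted p = 0.569). The call was lost without CAG100 replicate 2 (0.32, adjusted p = 0.0784) or 4 (0.37, 0.0535), without CAA/G105 replicate 3 (0.31, 0.0785) or 4 (0.33, 0.0669), and without the Akh-negative arrays (0.38, 0.119). Over all alternatives it ran from 0.00794 to 0.119. The ligand gene Lk, which encodes leucokinin, was also higher in CAG100 than in CAA/G105, by 1.20 ± 0.15 (adjusted p = 0.000132). Lk was lower in CAA/G105 than in CAG0 (-1.36 ± 0.15), where Lkr was not called. In CAG100 against CAA/G105, 2 of 8 tested haemocyte markers, 3 of 8 fat body markers and 1 of 5 muscle markers were also higher. Of all tested probe sets, 10.4% were higher there. The muscle marker was fln (1.94 ± 0.11). The other tested muscle markers, Mlc1, Mlc2, up and Prm, had lower means in CAG100 and were not called. The median difference over the 5 muscle markers was -1.07. The part of these cells in the Lkr difference was not tested.

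Counted over the list, 1 receptor gene was higher and 2 lower of 17 in CAG100 against CAG0, which is 17.6%, beside 18.3% of all tested probe sets (7.86% higher and 10.4% lower; 705 and 934 probe sets, or 877 and 751 with arrays shifted to the same median). In CAA/G105 against CAG0, 1 was higher and 1 lower (11.8%), beside 13.2% of all (5.49% higher and 7.72% lower; 492 and 692 probe sets, or 603 and 586 after that shift). In CAG100 against CAA/G105, 1 was higher and 3 lower (23.5%), beside 20.8% of all (10.4% higher and 10.5% lower). Without the Akh-negative arrays 2 were called there, AstC-R1 and Lgr3 (11.8%, beside 10.3% of all). These shares lie near those of the table as a whole, but with array weights 52.9% of the receptor genes were called in CAG100 against CAG0, beside 26.6% of all probe sets (2385). Without the Akh-negative arrays the share there was 17.6%, beside 10.6%. Groups did not overlap for 3, 2 and 4 of the 17 genes in these comparisons, beside 20.8%, 17.6% and 25.4% of all tested probe sets. The comparisons with CAG0 share their control arrays.

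**Figure D3:**
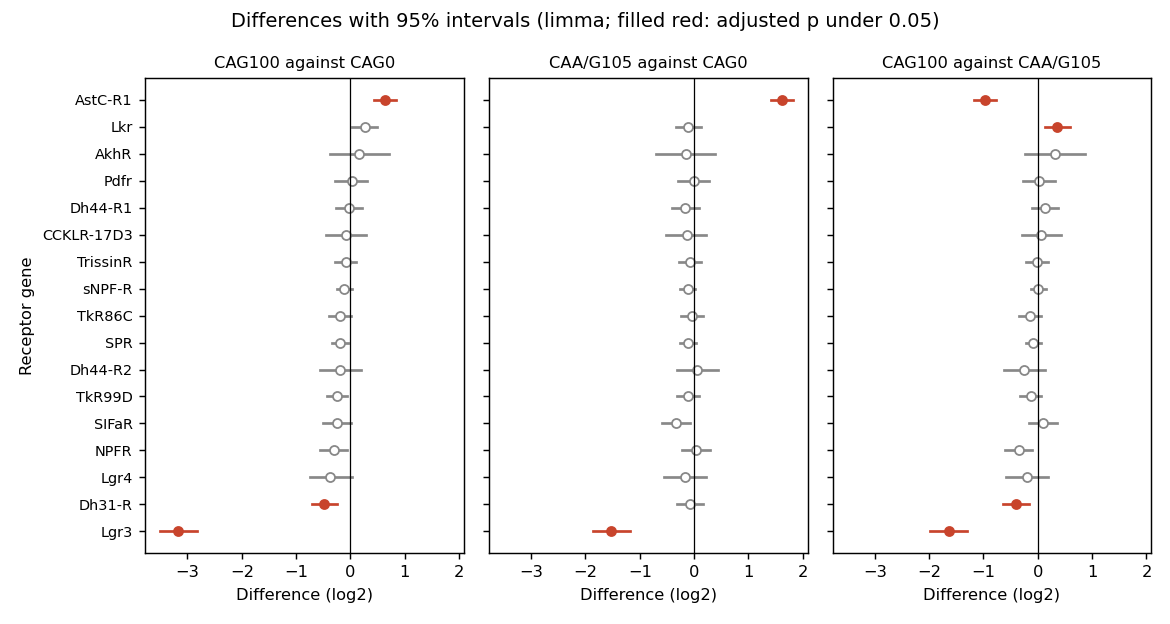
Log2 difference with its 95% interval from limma for each of the 17 tested receptor genes in the 3 comparisons, on 1 shared horizontal scale; filled red points have an adjusted p under 0.05. Lgr3 stands apart in every panel, and AstC-R1 in CAA/G105 against CAG0 and in CAG100 against CAA/G105. The intervals of most other genes include 0.

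In CAG100 against CAG0, 13 of 17 receptor genes had a negative difference, with a median of -0.19, beside 56.7% and a median of -0.03 over all tested probe sets. With arrays shifted to the same median, the figures were 13 of 17 and -0.16, beside 49.6% and 0.00. In CAA/G105 against CAG0, 14 were negative with a median of -0.11, beside 52.5% and -0.01, and 12 were negative with a median of -0.08, beside 41.9% and 0.03, after that shift. In CAG100 against CAA/G105, 10 were negative with a median of -0.08, beside 53.8% and -0.02. Without the shift, the related lists also had negative medians in CAG100 against CAG0. These were -0.11 for amine receptors, -0.08 for G protein signalling, -0.03 for peptide ligands and -0.02 for peptide processing. In CAA/G105 against CAG0 they were -0.1, -0.02, -0.11 and -0.05 in the same order. A difference between the lists was not tested.

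Receptors related to those of neuropeptide Y, NPFR and sNPF-R, act in feeding and reward. NPFR read 9.60 to 10.19 in CAG0, 9.46 to 9.80 in CAG100 and 9.84 to 10.09 in CAA/G105, so that all CAG100 arrays lay below all CAA/G105 arrays. That difference, -0.35 ± 0.12, fell just outside the threshold (limma adjusted p = 0.0509). It passed under 11 of 24 alternatives, among them both rescalings and the replicate block (0.0327), with adjusted p from 0.0141 to 0.179. Against CAG0, NPFR differed by -0.31 ± 0.12 in CAG100 (adjusted p = 0.0855). For sNPF-R the intervals were narrow, -0.25 to 0.02 in CAG100 and -0.26 to 0.02 in CAA/G105 against CAG0. Neither ligand gene, NPF or sNPF, was called in any comparison (adjusted p = 0.358 to 0.886).

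TkR99D, the main fly tachykinin receptor, read 9.79 to 10.01 in CAG0 and 9.42 to 9.75 in CAG100, which do not overlap. It was 1.19-fold lower, -0.25 ± 0.09, without passing the test (limma adjusted p = 0.0735, called only with array weights, at 0.03). TkR86C, a receptor of natalisin, differed by -0.19 ± 0.09 in the same comparison (adjusted p = 0.181) and by -0.15 ± 0.09 in CAG100 against CAA/G105 (0.266). In CAG100 against CAG0 the natalisin gene was lower, at -0.37 ± 0.11 (adjusted p = 0.0437), a call lost under 16 of 23 alternatives (0.00785 to 0.181).

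SPR, the sex peptide receptor that switches females to their mated behaviour and also binds myoinhibitory peptides, read 12.90 to 13.16 in CAG0, 12.78 to 12.98 in CAG100 and 12.87 to 13.06 in CAA/G105. Its difference in CAG100 against CAG0 was -0.19 ± 0.07 (limma adjusted p = 0.0645, 0.0153 to 0.404 across alternatives). SPR passed there with array weights (0.0419), with the replicate block (0.0333) and without CAG0 replicate 1 (0.0153). The myoinhibitory peptide gene Mip was lower in CAG100 against CAG0 by -0.30 ± 0.06 (adjusted p = 0.00499). SIFaR, the receptor of SIFamide, read 9.90 to 10.41 in CAG0 and 9.68 to 10.03 in CAA/G105. Its difference there was -0.34 ± 0.12 (adjusted p = 0.0881, 0.0207 to 0.23 across alternatives), and it passed without CAG0 replicate 3 (0.0207) and with array weights (0.021). In CAG100 against CAG0, SIFaR differed by -0.25 ± 0.12 (adjusted p = 0.176), while the ligand gene SIFa rose by 0.56 ± 0.09 (adjusted p = 0.00129).

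The remaining receptors were not called. CCKLR-17D3, a receptor of the satiety peptide drosulfakinin, differed by -0.08 ± 0.17, -0.14 ± 0.17 and 0.06 ± 0.17 in the 3 comparisons. TrissinR differed by at most 0.09 in size. AkhR, the receptor of adipokinetic hormone, which mobilises fat body stores, had the widest error (SE 0.25) and spread from 7.47 to 8.73 within CAG0. It differed by 0.16, -0.15 and 0.32 in the 3 comparisons, the last with a 95% interval of -0.23 to 0.86. On the Akh-negative arrays AkhR read 8.16 and 8.23 in CAG100 and 7.33 in CAA/G105, the last of these the lowest AkhR value of all 12 arrays. Over the 13 receptor genes called in no comparison, differences reached at most 0.37 in size, and 95% intervals reached from -0.75 to 0.86.

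**Figure D4:**
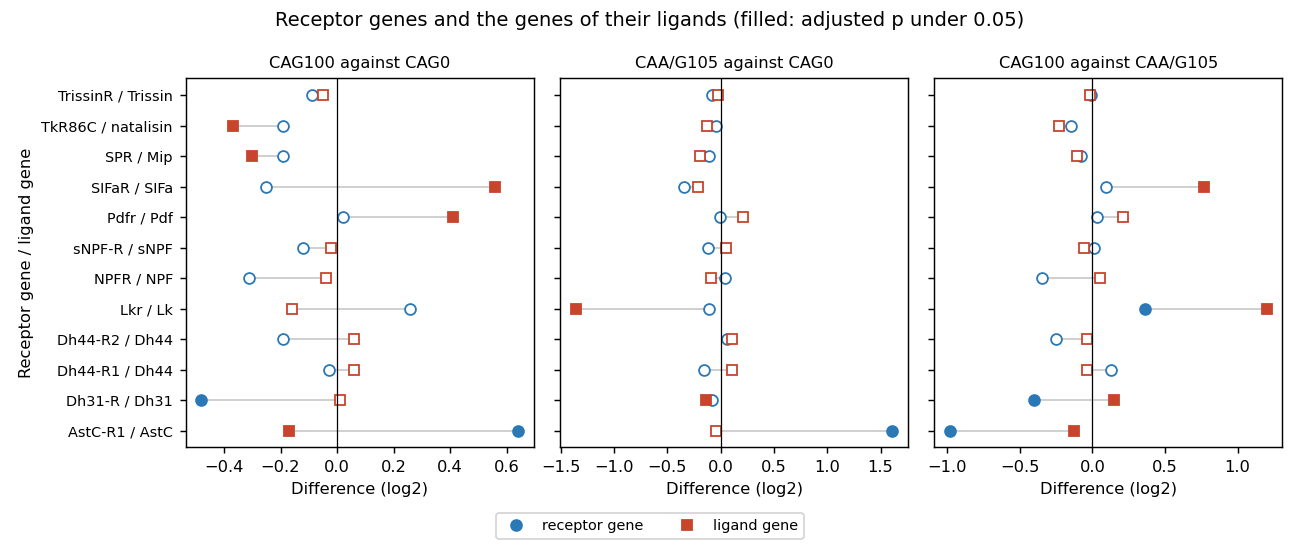
Log2 differences of 12 receptor genes (blue circles) and of the genes of their ligands (red squares) for pairs with both tested, without the pair of AkhR and Akh; filled symbols have an adjusted p under 0.05, and horizontal scales differ between panels. In CAG100 against CAG0 most filled symbols are ligands, and AstC-R1 and AstC lie on opposite sides of 0.

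Set beside the genes of their ligands, 13 receptor genes could be paired with a tested precursor gene. In CAG100 against CAG0, 2 receptor genes and 5 ligand genes of these pairs were called, and for 1 pair, AstC-R1 with AstC, both were, in opposite directions. For CAA/G105 against CAG0, 1 receptor gene and 2 ligand genes were called, in different pairs. In CAG100 against CAA/G105 both members of 3 pairs were called, with the same direction for AstC-R1 with AstC and for Lkr with Lk, and opposite directions for Dh31-R (-0.40 ± 0.11) and Dh31 (0.15 ± 0.03). The AstC call there (-0.13 ± 0.04) was lost under 12 of 23 alternatives. Over the whole ligand list, 2 of 20 tested genes were higher and 4 lower in CAG100 against CAG0 (30.0%, beside 18.3% of all probe sets), and 3 were called without the Akh-negative arrays (beside 10.6% of all probe sets). Of those 6, FMRFa (-0.73 ± 0.13) and SIFa had the largest differences. In CAA/G105 against CAG0, 4 were lower, led by CCHa1 (-1.70 ± 0.18) and Lk (20.0%, beside 13.2%). Between the repeats 6 were higher and 3 lower (45.0%, beside 20.8%).

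Of 12 tested genes that make or destroy the peptides, 2 were lower in CAG100 than in CAG0 (16.7%, beside 18.3% of all probe sets) and 3 in CAA/G105 (25.0%, beside 13.2%). Between the repeats 1 was higher and 1 lower (16.7%, beside 20.8%), and 0 were called without the Akh-negative arrays (beside 10.3% of all probe sets). Nep2, a neprilysin-type protease that degrades peptides outside cells, was 2.26-fold lower in CAG100 (-1.18 ± 0.13, limma adjusted p = 8.16e-05). Phm, the hydroxylase that begins the amidation of peptides, was lower by -0.19 ± 0.03 in CAG100 and -0.22 ± 0.03 in CAA/G105. The other calls in CAA/G105, Nep2 (-0.45 ± 0.13) and Pal2, which completes the amidation (-0.15 ± 0.04), were each lost under 16 of 23 alternatives.

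Downstream of the receptors, 1 of 23 tested G protein signalling genes was higher and 4 were lower in CAG100 against CAG0 (21.7%, beside 18.3% of all probe sets), with 2 to 7 called across alternatives. In CAA/G105 against CAG0, 1 was higher and 1 lower (8.7%, beside 13.2%), and between the repeats 2 were higher and 2 lower (17.4%, beside 20.8%). Pkc53E, a calcium-activated protein kinase C, was 1.71-fold higher in CAG100 (0.77 ± 0.06, limma adjusted p = 3.55e-06) and 1.30-fold higher in CAA/G105. Ac78C, an adenylyl cyclase, was lower by -0.36 ± 0.07 and Itpr, the IP3 receptor calcium channel, by -0.45 ± 0.13 in CAG100. The Itpr call was lost under 8 of 23 alternatives and those of Ac13E (-0.20 ± 0.06) and Plc21C (-0.17 ± 0.05) under 13 and 14. Pka-C3, a protein kinase A-type catalytic subunit, was lower by -0.70 ± 0.10 in CAA/G105 against CAG0 and was the only gene of the list lower there.

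Receptors of amines, the other large group of modulatory receptors in the brain, served as a comparison. Of 13 tested, limma called 0 in CAG100 against CAG0 (beside 18.3% of all probe sets), with 0 higher and 3 lower at an unadjusted p under 0.05 and 0 to 3 called across alternatives. In CAA/G105 against CAG0 it called 1, the octopamine receptor gene Octbeta2R, 2.37-fold higher (1.24 ± 0.13; 7.7% of the list, beside 13.2%), and between the repeats 1 higher (Octalpha2R, 0.60 ± 0.13) and 2 lower (Octbeta2R, -1.27 ± 0.13, and Oct-TyrR, -0.30 ± 0.09), 23.1% beside 20.8%. The Oct-TyrR call was lost under 11 of 23 alternatives (adjusted p up to 0.103), and that of Octalpha2R without the Akh-negative arrays (0.0846). A difference between the lists of peptide and amine receptors was not tested.

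Finally, the place of the called genes along the chromosomes was examined, a choice made after their values were seen. Among the 10 nearest tested genes, 5 on each side, 6 were called next to Lgr3 on arm 3R in CAG100 against CAG0. Over all 17 receptor genes this number ranged from 0 to 6 with a median of 2. It was 5 next to sNPF-R, which was not itself called. Of all tested probe sets, 18.3% were called in this comparison. All 5 tested genes on one side of Lgr3 were among the 6: CG4730 was lower (-1.59 ± 0.18), and CG5039 (0.71 ± 0.08), CG4743 (0.30 ± 0.08), Idh3g (0.42 ± 0.07) and the ribosomal protein gene RpL27 (0.49 ± 0.04) were higher. On the other side Tnks was lower (-0.64 ± 0.13). Of the 10, 4 were called in CAA/G105 against CAG0 (beside 13.2% of all tested probe sets), CG4730, CG5039, Idh3g and RpL27, in the same directions. The Idh3g call there was lost under 11 of 23 alternatives, and that of CG4743 in CAG100 under 4. In CAG100 against CAA/G105, where Lgr3 differed by -1.64 ± 0.16, 2 of the 10 were called, beside 20.8% of all. These were Tnks and RASSF8, both lower, while CG4730 was not called (limma adjusted p = 0.0764). Next to AstC-R1 on arm 3L, 4 of 10 were called in CAG100 against CAG0 and 1 in CAA/G105 against CAG0, where AstC-R1 itself differed most.

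**Figure D5:**
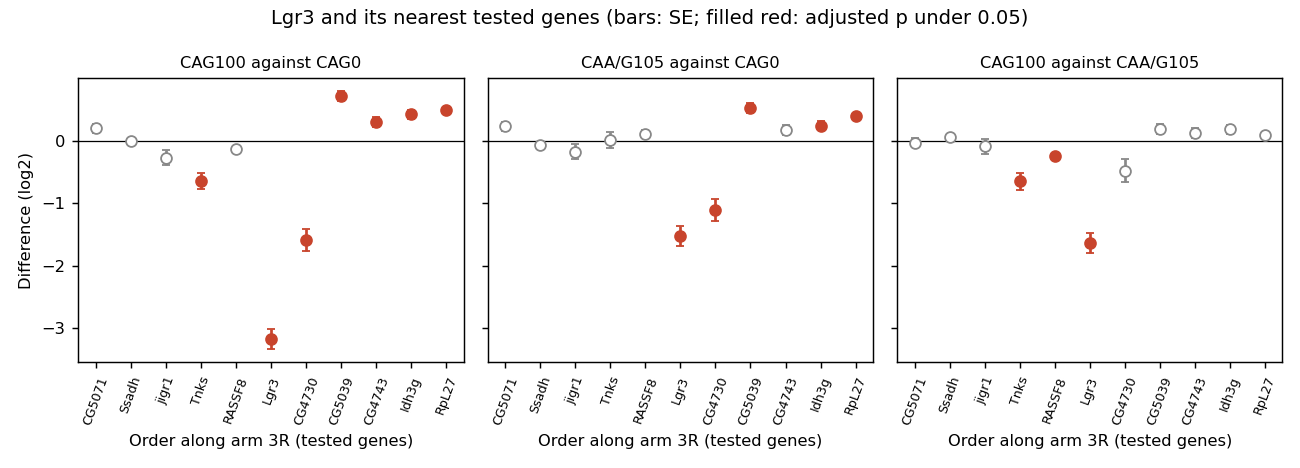
Log2 differences ± SE of Lgr3 and its 10 nearest tested genes in their order along arm 3R, in the 3 comparisons; filled red points have an adjusted p under 0.05. Lgr3 and CG4730 fall in both comparisons with CAG0, and the 4 genes beyond CG4730 lie above 0 there.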

How the data were processed

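Messenger RNA was measured on 12 single-colour Affymetrix arrays. Per the labels, a NuGEN whole-transcriptome kit (Ovation Pico) amplified the cDNA, which then received biotin. Per the submitters' processing notes the deposited log2 values were made with GCRMA and Partek; versions and settings are not given in the sources used here. The values were used as deposited by the authors. No depth applies to arrays.

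Control probe sets (183 of 18952) were left out. Of the rest, 13647 name 1 gene, 402 several and 4720 none in the array annotation; 13544 matched assembly Release 6 plus ISO1 MT, used for names and gene order only. The model in limma 3.58.1 (R 4.3.3) had 3 genotype means over all 12 arrays and a variance trend. The fit was tested on simulated data: with 200 of 8966 probe sets changed in CAG100 against CAG0, 72% of changes of log2 0.5 were recovered, and 4.02% of calls were false. The simulated noise was independent between probe sets, without tissue differences between arrays. These rates therefore check the code and do not give the rates in the real data.

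Members and lists were chosen with earlier results of these data known. Named were all receptor genes, with values on each array for those called, the 2 with the smallest p among those not called, up to 4 called genes per other list, and the ligand genes of receptors. Lgr3 neighbours lie outside this rule. Alternatives covered the filter, scaling, variance model, array weights, arrays in the fit, replicate block, threshold, probe set and leaving out each array. Leaving out the 3 Akh-negative arrays was added after seeing the data.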

Additional observations from a re-analysis of the deposited data

Results flagged for a closer look

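Among 51 groups of 4 arrays (17 receptor genes in 3 genotypes), 6 single arrays lay far from the others of their group, by a test that flags about 1 in 20 groups by chance. Dh31-R read 10.66 on CAG100 replicate 1 against 10.3 to 10.32 on the other CAG100 arrays. Lgr4 read 5.34 on CAG0 replicate 1 against 4.53 on each of the others, and 4.67 on CAG100 replicate 1 against 4.25 to 4.28. Pdfr read 5.84 on CAG100 replicate 1 against 5.68 to 5.69. TrissinR read 5.66 on CAG100 replicate 2 against 5.78 on the others, and 5.68 on CAA/G105 replicate 1 against 5.78 to 5.79. CAG100 replicate 1 accounts for 3 of the 6. All flags but that of Dh31-R fell on Lgr4, Pdfr and TrissinR, which had the lowest median signals of the tested receptor genes. The test sets the gap against the range, so a small shift is flagged where the other arrays read nearly alike.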

How the results depend on the processing

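Of 9 called differences of receptor genes, 7 kept their call under every alternative run. They were Lgr3 and AstC-R1 in all 3 comparisons and Dh31-R in CAG100 against CAG0. No called difference changed sign. The probe set alternative took the tested probe set with the smallest p for each gene, so it could not lose a call. On the other Dh31-R probe set the difference in CAG100 against CAG0 was -0.06 ± 0.18 (limma adjusted p = 0.865). Of 53 called differences of genes in the other lists and beside Lgr3, 34 kept their call throughout and none changed sign. The count of 3 receptor genes in CAG100 against CAG0 became 9 with array weights, which added Lkr, NPFR, SIFaR, SPR, TkR86C and TkR99D, and was 3 to 5 with 1 array left out. It was 5 without CAG0 replicate 1 or CAG0 replicate 3. The count of 2 in CAA/G105 against CAG0 was 2 to 3 with 1 array left out. The count of 4 in CAG100 against CAA/G105 became 2 at an adjusted p under 0.01, 2 without the 3 Akh-negative arrays, and 2 without CAG100 replicate 2, CAG100 replicate 4 or CAA/G105 replicate 3. With 1 array left out it was 2 to 5. With fewer arrays the tests are also weaker. Over all probe sets, counts of 1639, 1184 and 1869 became 797, 642 and 979 at an adjusted p under 0.01, and 948 and 924 in the comparisons of CAG100 with CAG0 and CAA/G105 when the Akh-negative arrays were left out. With 1 array left out they were 1119 to 1949, 874 to 1529 and 1353 to 2156. Deviations of same-numbered arrays of different genotypes correlated at -0.2588 to 0.3898. Differently numbered arrays were not set beside them, so these values cannot show whether the replicate numbers pair the arrays. The labels do not say what the numbers mark. With the replicate block 4, 2 and 5 receptor genes and 1466, 1090 and 1730 probe sets were called. The 17 receptor genes present became 16 at a threshold of log2 5 and were 17 in number under the other alternatives run.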
